A study of Mus musculus with 8 samples.

Results

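The Wnt family was taken as the 50 protein-coding mouse genes for Wnt ligands, Frizzled receptors, the co-receptors Lrp5 and Lrp6, the receptors Ror1 and Ror2, the secreted antagonists of the Sfrp and Dkk families and Wif1, the R-spondins with their receptors Lgr4, Lgr5 and Lgr6, and the feedback gene Axin2. They were found among 49671 annotated gene rows by a rule that reads only gene symbols, though the family was picked with earlier results of these data known. Polyadenylated RNA was sequenced from 8 mouse samples that the labels call adipocytes, 4 from BMPR2 DELX mice and 4 from ROSA mice, and the series sets the first against the second. The labels give no strain, age, sex or promoter, name no treatment beyond the group itself, do not say what either allele carries besides its name, and do not say whether the samples of a group came from separate animals, so p-values measure the spread between samples. Levels are CPM, counts relative to a fixed library total, scaled between libraries by TMM factors, and means are given ± SD over n = 4 libraries. A difference is given as log2 of BMPR2 DELX over ROSA ± its standard error, and called the log2 fold change.

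Wnt proteins are lipid-modified ligands that bind Frizzled receptors on nearby cells. With Lrp5 or Lrp6 in the complex the signal stabilises β-catenin, which enters the nucleus, joins TCF/LEF factors and switches on targets such as Axin2, while ligands such as Wnt5a also act through Ror receptors and planar polarity proteins without β-catenin. Sfrp proteins and Wif1 bind the ligands, Dkk proteins act at Lrp5 and Lrp6 or outside that complex, and R-spondins act through Lgr receptors to keep Frizzled receptors at the surface. In fat tissue, β-catenin signalling in precursor cells is known to hold back adipocyte differentiation.

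Total counts per library ran from 28799445 to 43684785. Of 12 markers of mature adipocytes, 7 were too low to test, the defining genes Retn, Cfd, Cidec, Plin1 and Lep did not go above 3 counts in a library, and Adipoq stayed at or below 0.178 CPM before scaling, while Fabp4 had 33.8 to 74.4 CPM, Pnpla2 32.8 to 48.9, Acsl1 11.8 to 15.1, Lipe 3.64 to 6.64 and Plin4 0.916 to 2.74 CPM over the 8 libraries. The list summed to 85.6 to 125 CPM for BMPR2 DELX against 116 to 146 CPM for ROSA, and 0 of its 5 tested genes were called. Summed markers of fibroblasts and progenitors came to 10117 to 14699 CPM for BMPR2 DELX against 10105 to 12459.9 CPM for ROSA, mostly from Col1a1 and Col1a2. Of that list Dpp4 was higher (log2 fold change 2.06 ± 0.53, edgeR adjusted p 0.042), at no more than 0.556 CPM, 0 were lower and Lum was too low to test. Smooth muscle and pericyte markers summed to 9183 to 12483 CPM for BMPR2 DELX against 10922 to 14503 CPM for ROSA, with Notch3 higher (0.96 ± 0.25) and Cspg4 and Mcam lower (-1.04 ± 0.23 and -0.77 ± 0.15) among 9 tested genes. The part of these cells in the levels of the Wnt family was not tested. Bmpr2, the BMP receptor named in the label, was at 199 to 237 CPM with overlap into ROSA at 183 to 216 CPM, and a whole-gene value says nothing of single exons. ROSA 1 and ROSA 2 stood apart from the other 6 libraries in 8 immediate early genes, which cells switch on within minutes of a stimulus or handling. Their summed level was 1168 and 1267 CPM there and 247 to 284 CPM in the others, all 8 genes were tested and 0 were called. Without these 2 libraries, 0 members were called higher and 0 lower, against 64 and 108 of all genes, with 2 ROSA libraries left. In such bulk samples, fewer cells of a type and less RNA per cell cannot be told apart.

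Of the 50 members, 31 had enough counts to be tested and 19 did not. Dkk3 and Fzd1 were higher in BMPR2 DELX and Wnt9a was lower, so 2 rose, 1 fell and 28 did not pass an adjusted p below 0.05 in the edgeR quasi-likelihood fit over all genes. These 3 calls are 9.68% of the tested members, and 9.10% of all genes tested were called, so the share of called members was close to that of any gene. DESeq2 called 7 members higher and 2 lower, with 1070 and 1228 of all genes. All BMPR2 DELX libraries lay on the same side of all ROSA libraries for 9 members, 7 higher and 2 lower, where 8.32% and 9.65% of all genes were. That is 29.03% of those tested, against 18.0% of all genes, and this difference in share was not tested. The median log2 fold change was 0.05 over the tested members and 0.0045 over all genes tested, with 16 members positive and 15 negative, and 50.7% of all genes positive. Receptors and co-receptors (Frizzled, Lrp, Ror and Lgr) were positive in 11 of 15 tested genes, and Wnt ligands were negative in 8 of 11.

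**Figure D1:**
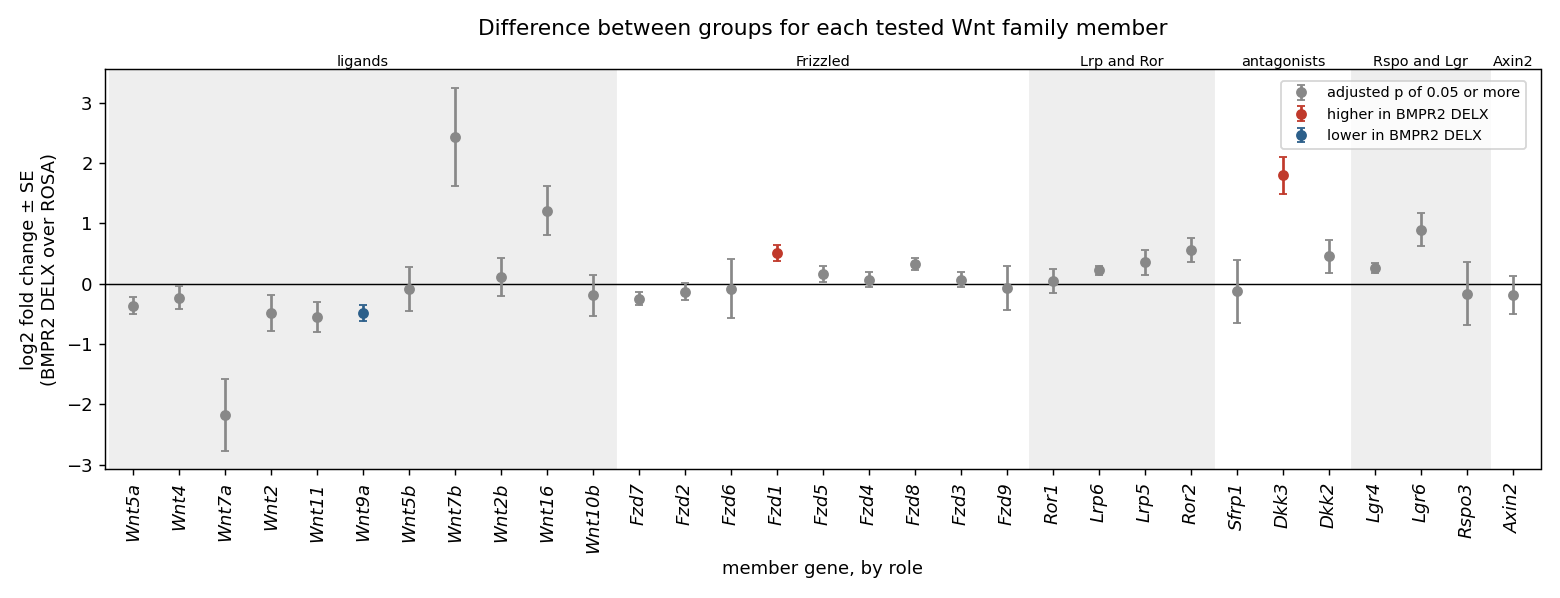
Log2 fold change of BMPR2 DELX over ROSA with its standard error for each of the 31 tested members, grouped by role and ordered by level within a role; red and blue points passed the adjusted p threshold. Dkk3 and Fzd1 are the called rises and Wnt9a the called fall, while Wnt7a and Wnt7b lie farthest from 0 with wide errors.

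Wnt5a, the ligand best known for signalling without β-catenin, was the most abundant of the 19 ligands. To compare genes with each other, CPM was divided by the length of each gene's annotated exons in kilobases (CPM per kb), a scale that rests on annotation and not on the transcripts these cells used. Wnt5a had 9.27 ± 1.01 and 11.9 ± 2.34 CPM per kb in BMPR2 DELX and ROSA. Next came Wnt4, known from kidney and gonad development, with 6.06 ± 0.410 and 7.11 ± 1.98 CPM per kb, and then Wnt7a, a dorsal limb and reproductive tract ligand, with 1.37 ± 0.809 and 6.20 ± 3.27 CPM per kb. In ROSA the levels of Wnt4 and Wnt7a did not differ beyond their spread, while in BMPR2 DELX every Wnt4 library lay above every Wnt7a library. Wnt2 followed, at 2.09 ± 0.106 and 2.92 ± 1.54 CPM per kb. Wnt11 and Wnt9a lay close below, between 1.22 and 3.11 CPM per kb over all libraries, and their ranges overlapped. Wnt5b, Wnt7b, Wnt2b, Wnt16 and Wnt10b were tested but stayed at or below 0.611 CPM per kb in any library.

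**Figure D2:**
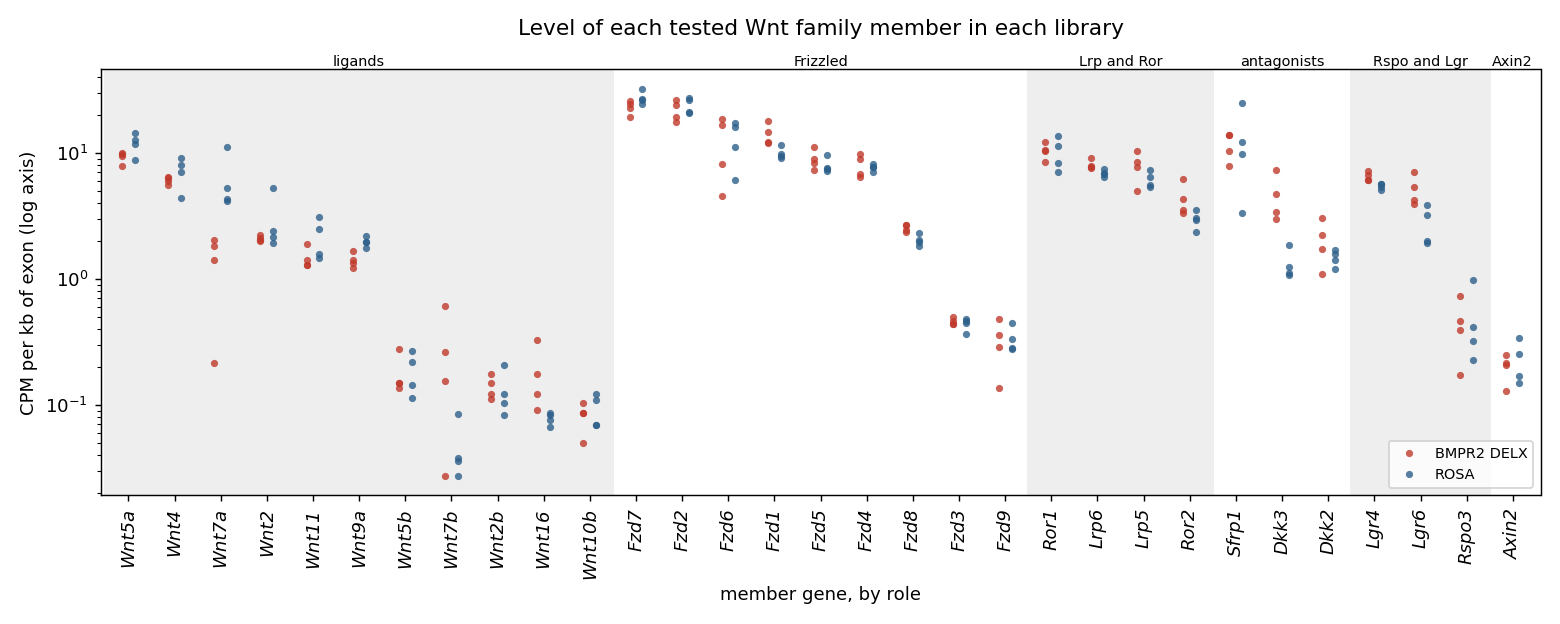
Level of each tested member in each library, in CPM per kb of annotated exon on a log axis, with 1 point per library, grouped by role. Fzd7 and Fzd2 are the most abundant members, Wnt5a leads the ligands and Sfrp1 leads the antagonists, and the 4 ROSA points of Wnt7a lie above the 4 BMPR2 DELX points.

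Wnt9a, a ligand of joint development (ENSMUSG00000000126, GRCm38 chromosome 11, 59306928 to 59333552), had 4.48, 4.06, 4.73 and 5.50 CPM in BMPR2 DELX 1 to 4 and 7.33, 5.82, 6.55 and 6.57 CPM in ROSA 1 to 4. All BMPR2 DELX libraries were lower than all ROSA libraries. The log2 fold change was -0.48 ± 0.13 and the edgeR adjusted p 0.047, close to the threshold. The call was lost in 7 of 8 fits that left out 1 library, where the adjusted p reached 0.13 without ROSA 1 and the log2 fold change stayed between -0.57 and -0.41. Without ROSA 1 and ROSA 2 it was -0.47, with an adjusted p of 0.20. The 250 bases before the RefSeq start of Wnt9a are shown because it is a called member whose start region contains GGCGCC, a GC-rich element bound by the SMAD proteins that BMP receptors activate. The sequence is from GRCm38.p6, chr11:59306680-59306929, plus strand, with the 2 matches in capitals.
Wnt9a: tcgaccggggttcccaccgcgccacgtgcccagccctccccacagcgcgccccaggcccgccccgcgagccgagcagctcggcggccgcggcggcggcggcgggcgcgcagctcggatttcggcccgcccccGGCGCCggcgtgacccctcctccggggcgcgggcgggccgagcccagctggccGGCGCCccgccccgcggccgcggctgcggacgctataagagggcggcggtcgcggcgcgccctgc
The stretch is 84.4% G or C, against a median of 52.4% over the same window of all start regions. GGCGCC, which reads the same on both strands, occurs in the same window of 9.59% of all 32851 start regions in the RefSeq table. A match is a run of letters and does not show that a factor was bound.

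Wnt7a had the largest negative value among the members but did not pass. It had 4.48, 6.43, 0.675 and 5.74 CPM in BMPR2 DELX 1 to 4 and 13.1, 35.1, 13.8 and 16.7 CPM in ROSA 1 to 4. The groups did not overlap, BMPR2 DELX 3 was lowest and ROSA 2 stood far above the other ROSA libraries. The log2 fold change was -2.18 ± 0.60 and edgeR's adjusted p was 0.062. DESeq2 gave an adjusted p of 0.014 and limma voom 0.068, and with edgeR the adjusted p was 0.034 without BMPR2 DELX 3 and 0.16 without ROSA 2. Summed markers of mesothelial cells, the lining of body cavities, were also lower, at 69.3 to 83.3 CPM for BMPR2 DELX against 90.4 to 134 CPM for ROSA. Within the groups the order of libraries differed from that of Wnt7a. BMPR2 DELX 3, lowest for Wnt7a, had a sum of 77.1 CPM, and BMPR2 DELX 4 had the lowest sum. ROSA 1 had the highest sum and the lowest Wnt7a of its group. Of the 7 genes of the mesothelial list all were tested, 1 was lower (Upk1b) and none (0) was higher. Log2 fold changes were positive for 3 and negative for 4. Upk1b and Krt19, which also counts among the epithelial markers below, carried the lower sum. Wt1, the list's most abundant gene, had a mean of 52.5 ± 7.04 CPM over the BMPR2 DELX libraries against 44.5 ± 4.12 CPM over ROSA. The other positive genes were Upk3b and Lrrn4, at no more than 2.13 CPM. The part of these cells in the level of Wnt7a was not tested.

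Wnt5a had 76.7, 61.01, 78.4 and 73.9 CPM in BMPR2 DELX 1 to 4 and 113, 92.5, 98.7 and 69.2 CPM in ROSA 1 to 4, and ROSA 4 lay within the range of BMPR2 DELX. Its log2 fold change was -0.36 ± 0.14 (edgeR adjusted p 0.14, and 0.026 without ROSA 4). That was the only 1 of 8 fits without 1 library in which Wnt5a passed, and the adjusted p reached 0.33 in the others. With other tools, scalings, filters, counts or blocking it passed in 0 of 8 fits (adjusted p 0.082 to 0.27). Wnt4 had 24.9, 23.2, 27.1 and 26.5 CPM in BMPR2 DELX 1 to 4 and 37.9, 29.5, 18.5 and 33.4 CPM in ROSA 1 to 4, narrow among the BMPR2 DELX libraries and wide among ROSA, with a log2 fold change of -0.23 ± 0.19 and an adjusted p of 0.46. Wnt4 passed in 1 of 8 edgeR fits without 1 library, the one without ROSA 3 (adjusted p 0.046). In the others the adjusted p reached 0.83, and the log2 fold change ran from -0.40 to -0.08 over the 8 fits. It passed in 0 of 8 fits with other tools, scalings, filters, counts or blocking. Wnt2 had 4.58, 4.74, 5.02 and 4.47 CPM in BMPR2 DELX 1 to 4, a narrow range that the ROSA libraries overlapped, and ROSA 3 alone was high at 11.8 CPM. Wnt11, which steers cell movement in the embryo, had a mean of 6.06 ± 1.16 CPM over the BMPR2 DELX libraries against 8.93 ± 3.25 CPM over ROSA, and neither Wnt2 nor Wnt11 passed (adjusted p 0.33 and 0.19).

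Among the low ligands, Wnt16 and Wnt7b had positive values that did not pass. Wnt16, a ligand of bone, had 0.393, 0.761, 0.528 and 1.43 CPM in BMPR2 DELX 1 to 4 and 0.373, 0.364, 0.333 and 0.292 CPM in ROSA 1 to 4, with a log2 fold change of 1.21 ± 0.41 and an edgeR adjusted p of 0.091. Every BMPR2 DELX library was above every ROSA library, though BMPR2 DELX 1 and ROSA 1 nearly met. Wnt7b had 0.753, 1.30, 2.99 and 0.134 CPM in BMPR2 DELX 1 to 4 and 0.186, 0.413, 0.133 and 0.175 CPM in ROSA 1 to 4. Its log2 fold change of 2.43 ± 0.82 (edgeR adjusted p 0.097) rested on 3 BMPR2 DELX libraries, since BMPR2 DELX 4 was as low as the lowest ROSA library. Wnt7b passed in 1 of 8 edgeR fits without 1 library (adjusted p 0.021). It also passed in 1 of 7 fits with other tools, scalings, filters, counts or blocking, where the adjusted p ran from 0.011 to 0.32. The order of the BMPR2 DELX libraries for Wnt7b was that of the epithelial keratin gene Krt8, which had 2.81, 5.67, 11.2 and 0.939 CPM in BMPR2 DELX 1 to 4. The epithelial markers Krt7, Pax8, Cdh16 and Cldn3 shared this order, while Krt18, Krt19 and Cldn4 did not. Among the ROSA libraries Wnt7b was highest in ROSA 2 and Krt8 in ROSA 1, at 1.62 CPM. Of 10 epithelial markers, Pax8 was called higher, 0 were called lower and 2 were not tested. Krt19 was lower in all BMPR2 DELX libraries than in all ROSA libraries without passing (log2 fold change -1.12 ± 0.30, edgeR adjusted p 0.052). The epithelial sum was 22.99 to 57.7 CPM for BMPR2 DELX against 33.1 to 49.4 CPM for ROSA, and the defining markers Epcam and Cdh1 stayed at or below 0.166 CPM. Their part in the level of Wnt7b was not tested. Wnt5b, Wnt2b and Wnt10b, at 0.169 to 0.870 CPM in any library, had log2 fold changes of -0.09 ± 0.36, 0.11 ± 0.32 and -0.19 ± 0.34 and did not pass. Wnt10b is the ligand best known for restraining adipogenesis.

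Summed over all 19 ligands, the level per length was 22.6, 20.97, 23.04 and 23.8 CPM per kb in BMPR2 DELX 1 to 4 and 34.1, 37.3, 32.2 and 28.3 CPM per kb in ROSA 1 to 4. The sum was lower in each BMPR2 DELX library than in any ROSA library. Of the difference between the group means, 10.3 CPM per kb, Wnt7a made up 46.7%, Wnt5a 25.8% and Wnt4 10.1%, and the called Wnt9a 5.45%. The share of Wnt7a in the ligand sum was 0.924% to 9.66% in BMPR2 DELX and 12.2% to 29.6% in ROSA. Wnt5a held 40.9% ± 3.08 and 36.2% ± 5.57, which overlapped. These sums are descriptions without a test. The other 8 ligands, Wnt1, Wnt3, Wnt3a, Wnt6, Wnt8a, Wnt8b, Wnt9b and Wnt10a, stayed at or below 6 counts and were not tested, and a count of 0 allows up to 0.0687 to 0.104 CPM in these libraries, for counting error only.

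Frizzled receptors held the most abundant members per length. Fzd7 had 23.1 ± 2.85 and 27.5 ± 3.37 CPM per kb and its close relative Fzd2 21.8 ± 4.07 and 23.9 ± 3.44 CPM per kb in BMPR2 DELX and ROSA, and these levels overlapped. Fzd6 and Fzd1 came next, then Fzd5 and Fzd4, at 8.90 ± 1.61 and 7.96 ± 1.13 and 8.01 ± 1.63 and 7.63 ± 0.448 CPM per kb, each pair within its spread. Fzd8 had 2.54 ± 0.164 and 2.03 ± 0.210 CPM per kb, and Fzd3 and Fzd9 stayed at or below 0.495 CPM per kb. Fzd10 had 2 to 15 counts per library and was not tested. Summed over all 10 receptors the level was 91.3 ± 3.19 CPM per kb in BMPR2 DELX and 92.4 ± 11.2 in ROSA, so the sums overlapped.

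Fzd1 (ENSMUSG00000044674, GRCm38 chromosome 5, 4753839 to 4758035), of the same subfamily as Fzd2 and Fzd7, had 50.96, 50.4, 75.2 and 61.8 CPM in BMPR2 DELX 1 to 4 and 48.8, 40.8, 37.9 and 39.6 CPM in ROSA 1 to 4. Each BMPR2 DELX library was above each ROSA library, with BMPR2 DELX 3 highest and BMPR2 DELX 2 and ROSA 1 closest to each other. It rose by 0.51 ± 0.14 on the log2 scale, with an edgeR adjusted p of 0.046. That call was lost in 6 of 8 fits without 1 library, where the log2 fold change ran from 0.38 without BMPR2 DELX 3 to 0.61 without ROSA 1 and the adjusted p reached 0.12 without ROSA 2. Without ROSA 1 and ROSA 2 it was 0.64, with an adjusted p of 0.12. Its relatives had values on the other side of 0 that did not pass. Fzd7 had 87.9, 102, 118 and 111 CPM in BMPR2 DELX 1 to 4 and 146, 122, 111 and 119 CPM in ROSA 1 to 4, a log2 fold change of -0.25 ± 0.11 and an adjusted p of 0.18, and Fzd2 had -0.13 ± 0.14 and an adjusted p of 0.59.

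Within a library, the ratio of Fzd1 to Fzd7 per length was 0.626, 0.533, 0.688 and 0.603 in BMPR2 DELX 1 to 4 and 0.360, 0.362, 0.370 and 0.360 in ROSA 1 to 4. The ROSA libraries were nearly equal and all BMPR2 DELX libraries lay above them. The ratio of Fzd1 to Fzd2 was 0.613 to 0.680 in BMPR2 DELX and 0.358 to 0.462 in ROSA. Such a ratio needs no scaling between libraries, but it was computed after the values were seen, shows only unequal change, and has no test. The 250 bases before the RefSeq start of Fzd1 are shown to set beside Wnt9a, as the other called member with an entry in the table (GRCm38.p6, chr5:4758217-4758466, minus strand, where the RefSeq start lies upstream of the GENCODE start).
Fzd1: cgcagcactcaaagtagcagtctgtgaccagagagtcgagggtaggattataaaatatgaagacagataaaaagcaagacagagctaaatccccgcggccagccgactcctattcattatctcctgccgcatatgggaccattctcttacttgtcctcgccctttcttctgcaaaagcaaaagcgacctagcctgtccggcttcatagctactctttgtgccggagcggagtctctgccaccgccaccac
This stretch is 51.2% G or C and holds no GGCGCC and neither CTTTGAT nor CTTTGAA, the TCF/LEF core letters searched on both strands, which says only that these letters are not in this window. CTTTGAT or CTTTGAA occurs in 7.48% of all start regions of this length, and in the Wnt9a window neither was found.

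Fzd8 had 14.1, 15.8, 14.5 and 16.1 CPM in BMPR2 DELX 1 to 4 and 12.1, 10.9, 11.6 and 13.8 CPM in ROSA 1 to 4, so the groups did not overlap. The log2 fold change was 0.33 ± 0.10 and edgeR's adjusted p 0.062. DESeq2 and limma voom gave Fzd8 adjusted p-values of 0.020 and 0.039. Fzd5, which pairs with Fzd8 by sequence, had a mean of 61.5 ± 11.1 CPM over the BMPR2 DELX libraries against 55.03 ± 7.80 CPM over ROSA. Fzd4, the Norrin receptor of vessels, had a mean of 53.8 ± 10.9 CPM over the BMPR2 DELX libraries against 51.3 ± 3.01 CPM over ROSA. Fzd3, Fzd4, Fzd5 and Fzd9 had log2 fold changes from -0.07 to 0.16, and none of these 4 passed.

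**Figure D3:**
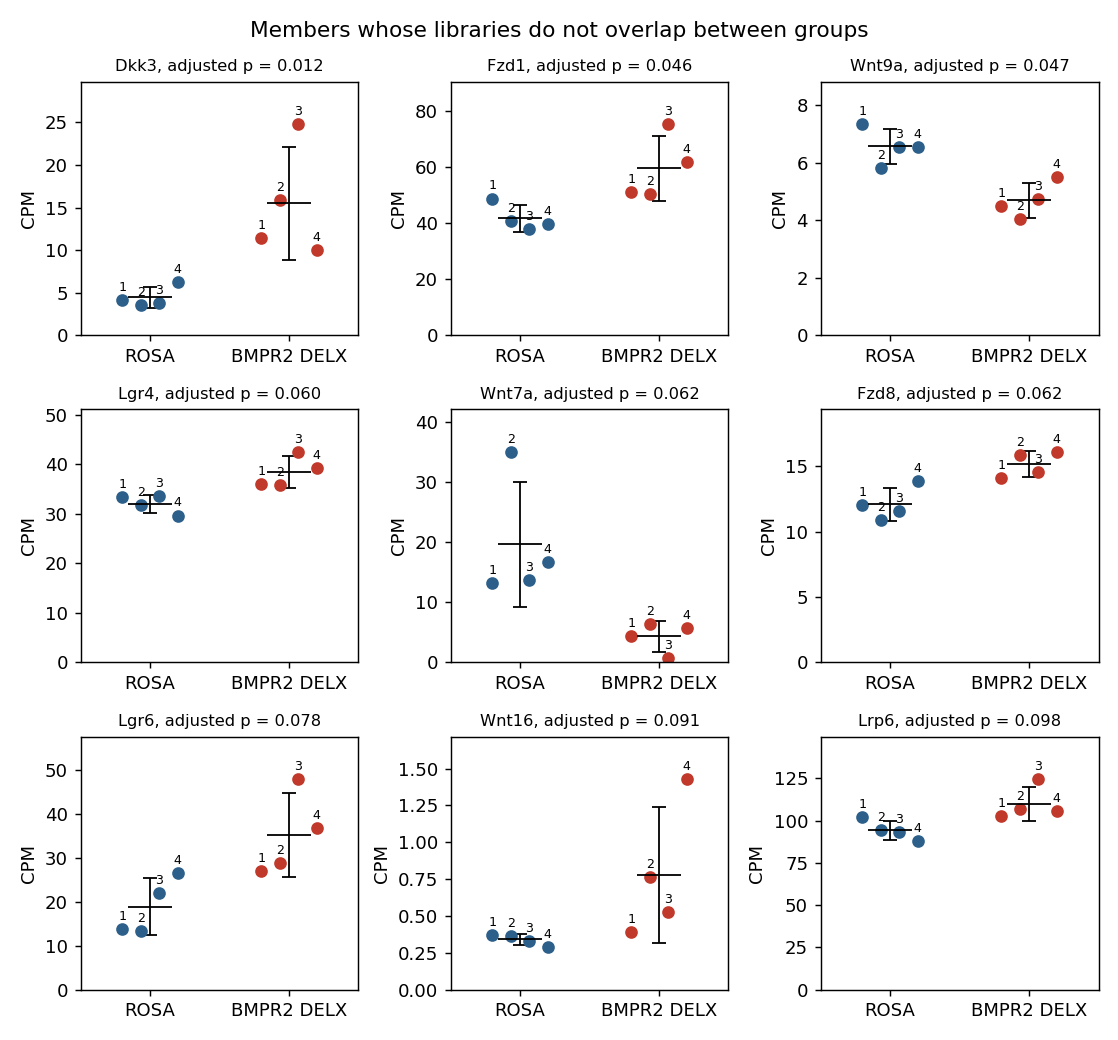
CPM by library for the 9 members whose groups do not overlap, ordered by p, with the replicate number beside each point and the mean ± SD as bars; each axis starts at 0. Dkk3, Fzd1 and Wnt9a passed, and the other 6 lie between adjusted p-values of 0.060 and 0.098.

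Fzd6, a receptor of planar polarity in skin and vessels, varied more within each group than between them. It had 89.1, 79.6, 21.9 and 39.1 CPM in BMPR2 DELX 1 to 4 and 77.2, 82.7, 29.3 and 53.5 CPM in ROSA 1 to 4. BMPR2 DELX 3 and ROSA 3 were the lowest of their groups, and the log2 fold change was -0.08 ± 0.49 (edgeR adjusted p 0.94). Summed markers of endothelial cells had 2146, 2197, 659 and 1285 CPM in BMPR2 DELX 1 to 4 and 1761, 2102, 1034 and 1609 CPM in ROSA 1 to 4, so the same libraries were lowest. Of the 12 endothelial genes 11 were tested, 0 were higher and 0 lower, and only Cldn5 was too low to test. Sfrp1 was lowest in ROSA 3 as well, though not in BMPR2 DELX 3. The part of endothelial cells in the level of Fzd6 was not tested.

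**Figure D4:**
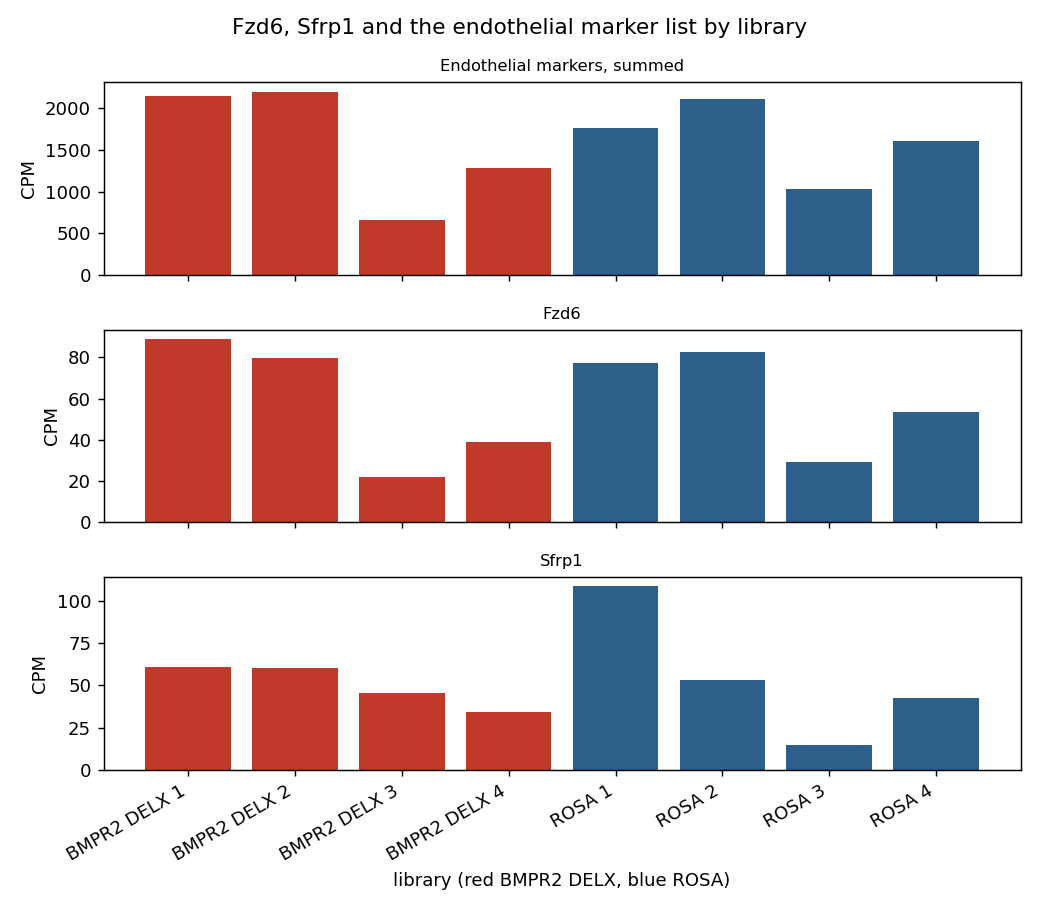
CPM by library for the sum of 12 endothelial markers, for Fzd6 and for Sfrp1, with BMPR2 DELX in red and ROSA in blue. Fzd6 and the markers are both lowest in BMPR2 DELX 3, at 21.9 and 659 CPM, and in ROSA 3 within ROSA, whereas Sfrp1 is highest in ROSA 1.

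Among co-receptors, Lrp6, the main partner of Frizzled in β-catenin signalling, had 103, 107, 125 and 106 CPM in BMPR2 DELX 1 to 4 and 102, 94.4, 93.2 and 88.1 CPM in ROSA 1 to 4. Its libraries did not overlap, by a margin that was small between BMPR2 DELX 1 and ROSA 1. The log2 fold change was 0.22 ± 0.08 and the edgeR adjusted p 0.098, with 0.054 to 0.13 under the other tools, scalings and filters. Lrp5 had 82.9, 101, 48.2 and 75.6 CPM in BMPR2 DELX 1 to 4 and 54.1, 71.3, 51.7 and 62.9 CPM in ROSA 1 to 4, and the libraries overlapped, with BMPR2 DELX 3 lowest of all (log2 fold change 0.36 ± 0.21, adjusted p 0.31). Per length, Lrp6 at 8.05 ± 0.730 and 6.90 ± 0.417 and Lrp5 at 7.90 ± 2.25 and 6.16 ± 0.918 CPM per kb in BMPR2 DELX and ROSA did not differ beyond their spread. Ror1, a tyrosine kinase-like receptor for Wnt5a, was at 10.4 ± 1.51 and 10.1 ± 2.96 CPM per kb and Ror2, its paralog, at 4.35 ± 1.31 and 2.95 ± 0.458 CPM per kb, and every Ror1 library lay above every Ror2 library. Ror2 had 14.2, 15.1, 26.3 and 18.3 CPM in BMPR2 DELX 1 to 4 and 12.9, 10.1, 14.8 and 12.3 CPM in ROSA 1 to 4, where only ROSA 3 reached the BMPR2 DELX range, and a log2 fold change of 0.56 ± 0.20 (adjusted p 0.11, and 0.042 in DESeq2). Ror1 had a log2 fold change of 0.05 ± 0.20 and an adjusted p of 0.90.

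Dkk3, a divergent Dickkopf protein that does not block Lrp6 as Dkk1 does, had the smallest p of the members (ENSMUSG00000030772, GRCm38 chromosome 7, 112116017 to 112159057). It had 11.5, 15.8, 24.7 and 10.01 CPM in BMPR2 DELX 1 to 4 and 4.20, 3.59, 3.76 and 6.27 CPM in ROSA 1 to 4. All BMPR2 DELX libraries were above all ROSA libraries, and BMPR2 DELX 3 stood highest. Dkk3 rose by 1.80 ± 0.31 on the log2 scale with an edgeR adjusted p of 0.012, from 4.45 ± 1.24 to 15.5 ± 6.64 CPM. The call held in each of the 8 fits without 1 library, where the log2 fold change ran from 1.48 without BMPR2 DELX 3 to 2.01 without ROSA 4. It was lost without both ROSA 1 and ROSA 2 (log2 fold change 1.64, adjusted p 0.15), when 2 ROSA libraries were left. Among the BMPR2 DELX libraries Dkk3 and the epithelial gene Krt8 had the same order. BMPR2 DELX 4, lowest for both, had 0.939 CPM of Krt8 and 10.01 CPM of Dkk3. The epithelial markers Krt7, Pax8, Cdh16 and Cldn3 shared that order, while Krt18, Krt19 and Cldn4 did not. Among the ROSA libraries the match was absent, with Dkk3 highest in ROSA 4 and Krt8 in ROSA 1, at 1.62 CPM. Summed macrophage and leukocyte markers were also higher, at 37.6 to 70.6 CPM for BMPR2 DELX against 25.05 to 36.5 CPM for ROSA, with 4 of 12 tested, 1 higher (Cd68) and 0 lower, and Ptprc at or below 0.599 CPM. Csf1r, the largest part of that sum, had overlapping groups and did not pass (edgeR adjusted p 0.21). BMPR2 DELX 3 and ROSA 4 were highest in their groups for both the sum and Dkk3. BMPR2 DELX 2, lowest in its group for the sum, had more Dkk3 than BMPR2 DELX 1 and BMPR2 DELX 4. The part of either cell type in the level of Dkk3 was not tested.

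Sfrp1, which binds Wnt ligands outside the cell, was the most abundant antagonist at 11.5 ± 2.92 and 12.5 ± 9.07 CPM per kb in BMPR2 DELX and ROSA, and its ROSA libraries covered a wide range. It had 60.7, 60.4, 45.4 and 34.3 CPM in BMPR2 DELX 1 to 4 and 109, 53.2, 14.4 and 42.5 CPM in ROSA 1 to 4. The highest and the lowest of the 8 libraries were both ROSA, and the log2 fold change was -0.13 ± 0.52 and edgeR's adjusted p was 0.90. Its sign turned without ROSA 1 (0.46) and without BMPR2 DELX 4 (0.02). Dkk2 had 8.18, 11.2, 4.08 and 6.35 CPM in BMPR2 DELX 1 to 4 and 5.87, 4.46, 6.22 and 5.25 CPM in ROSA 1 to 4, with overlapping groups and a log2 fold change of 0.45 ± 0.27 (adjusted p 0.32). Dkk2 and Dkk3 did not differ beyond their spread in ROSA, at 1.47 ± 0.208 and 1.33 ± 0.369 CPM per kb. The share of Dkk3 in the summed antagonist level was 17.3% to 38.9% in BMPR2 DELX and 4.45% to 17.6% in ROSA, and the ranges overlapped narrowly. Sfrp2, Sfrp4 and Wif1 had at most 17 counts in a library and were not tested. Dkk1, Dkk4 and Sfrp5 each had 1 count in all libraries together.

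Lgr4 and Lgr6, receptors for R-spondins, were both higher in all BMPR2 DELX libraries than in all ROSA libraries, and neither passed in the edgeR fit. Lgr6 had 26.9, 28.8, 47.9 and 36.6 CPM in BMPR2 DELX 1 to 4 and 13.7, 13.2, 22.05 and 26.6 CPM in ROSA 1 to 4, with ROSA 4 close to BMPR2 DELX 1, and a log2 fold change of 0.90 ± 0.27 (edgeR adjusted p 0.078). Lgr4 had 35.9, 35.8, 42.5 and 39.3 CPM in BMPR2 DELX 1 to 4 and 33.4, 31.7, 33.5 and 29.7 CPM in ROSA 1 to 4, and a log2 fold change of 0.26 ± 0.08 (adjusted p 0.060). DESeq2 called both, at 0.0046 and 0.025, while limma voom called Lgr6 (0.041) and not Lgr4 (0.051). BMPR2 DELX 3, the library with the lowest endothelial sum, was the highest for Dkk3, Fzd1, Lrp6, Lgr4 and Lgr6. Fzd8 and Wnt16, also higher without overlap, were highest in BMPR2 DELX 4. ROSA 3, lowest of ROSA in the endothelial sum, was the lowest of all 8 libraries for Fzd1. Within ROSA it was highest for Lgr4 and neither highest nor lowest for Dkk3, Lrp6 and Lgr6. What the makeup of BMPR2 DELX 3 contributes was not tested. Per length, Lgr4 was at 6.53 ± 0.543 and 5.45 ± 0.307 CPM per kb and Lgr6 at 5.12 ± 1.39 and 2.76 ± 0.955 CPM per kb in BMPR2 DELX and ROSA. Lgr5, a stem cell marker and β-catenin target, had 0 to 3 counts per library.

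R-spondin transcripts themselves were scarce. Rspo3 had 2.26, 1.44, 1.20 and 0.536 CPM in BMPR2 DELX 1 to 4 and 3.05, 1.29, 0.698 and 0.992 CPM in ROSA 1 to 4, with overlapping groups, a log2 fold change of -0.16 ± 0.52 and an edgeR adjusted p of 0.87. Rspo1 had 5 to 17 counts in BMPR2 DELX libraries and 1 to 12 in ROSA libraries, Rspo2 had 2 to 10, and Rspo4 had 0 in all 8, and these 3 were not tested. Axin2, the scaffold of the β-catenin destruction complex and a feedback target of β-catenin in most cell types, was low. It had 1.15, 0.705, 1.38 and 1.18 CPM in BMPR2 DELX 1 to 4 and 0.932, 1.87, 1.40 and 0.817 CPM in ROSA 1 to 4, with overlapping groups. The log2 fold change was -0.19 ± 0.31 and edgeR's adjusted p was 0.74, and it ran from -0.35 to 0.09 without 1 library, above 0 without ROSA 2.

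Around these members, 102 other genes of the pathway were set in 4 lists, of which 91 were tested, 10 were higher and 5 lower, or 16.5% called against 9.10% of all genes. Of 19 tested genes for Wnt secretion and surface regulation, 4 were higher, 0 were lower and 15 did not pass, with a median log2 fold change of 0.25. Among all genes 3.96% were higher and 5.15% lower, 589 and 766 genes, or 734 and 606 with upper-quartile scaling. Ptk7, a catalytically inactive Wnt co-receptor, had 105, 109, 121 and 111 CPM in BMPR2 DELX 1 to 4 and 85.1, 76.6, 73.8 and 71.7 CPM in ROSA 1 to 4, with no overlap, and rose by 0.54 ± 0.07 (edgeR adjusted p 0.0036). It was still called without both ROSA 1 and ROSA 2, at 0.020. Adgra2, a co-activator for Wnt7a and Wnt7b, rose by 0.65 ± 0.10 to 162 ± 17.5 CPM, and Kremen1, a receptor for Dkk proteins, by 0.34 ± 0.07 to 79.01 ± 4.93 CPM. Lrp4, a receptor for agrin and sclerostin, rose by 0.70 ± 0.18 to 2.07 ± 0.243 CPM, and its call was lost in 7 of 8 fits without 1 library, while Ptk7, Adgra2 and Kremen1 kept theirs. Wls, the carrier that brings Wnt ligands to the surface, had a mean of 277 ± 14.7 CPM over the BMPR2 DELX libraries against 324 ± 26.98 CPM over ROSA (adjusted p 0.085).

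Planar polarity and other β-catenin-independent genes had 4 higher, 1 lower and 17 not passing among 22 tested, with a median of 0.18. The share called was 22.7%, against 9.10% of all genes, and this difference in share was not tested. The core polarity genes Prickle1 and Vangl2 rose by 0.93 ± 0.18 and 0.68 ± 0.13, from 6.36 ± 1.27 and 5.91 ± 0.274 CPM in ROSA, with edgeR adjusted p of 0.015 and 0.015. Celsr2, an atypical cadherin of the same system, rose by 0.97 ± 0.26 from 0.635 ± 0.143 CPM (adjusted p 0.047, lost in each of the 8 fits without 1 library). The calcium-regulated factor Nfatc4 rose by 0.43 ± 0.10, and Daam1, a formin that acts after Dishevelled, fell, with a log2 fold change of -0.27 ± 0.06, with the calls lost in 4 and 5 of 8 such fits. Prickle1 and Vangl2 kept the call in each of these fits.

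The intracellular β-catenin list had 2 higher, 1 lower and 35 not passing of 38, or 7.89% called against 9.10% of all genes. It had 19 values positive and 19 negative, a range of -0.59 to 1.39 and a median of -0.0029. Ctnnb1, encoding β-catenin, had a mean of 666 ± 78.7 CPM over the BMPR2 DELX libraries against 605 ± 72.3 CPM over ROSA (edgeR adjusted p 0.44). Pygo1 and Bcl9, which bridge β-catenin to transcription, rose by 1.39 ± 0.23 and 0.49 ± 0.12. Pygo1 had 4.58, 2.71, 5.05 and 3.82 CPM in BMPR2 DELX 1 to 4 and 1.24, 1.67, 1.33 and 1.87 CPM in ROSA 1 to 4, without overlap, and kept its call in each fit without 1 library, whereas Bcl9 lost it in 5. Csnk1e, a kinase of Dishevelled, fell, with a log2 fold change of -0.35 ± 0.08, a call lost in 6 of 8 such fits. Of 19 tested β-catenin target genes 0 were higher, 3 were lower and 16 did not pass (median -0.21). The share called was 15.8%, all of it lower, where 5.15% of all genes were lower, and this difference in share was not tested. Without ROSA 1 and ROSA 2, 1 of the 10 higher genes of the 4 lists (Ptk7) and 1 of the 5 lower (Fosl1) were called. The 3 lower targets are known to answer to other signals as well as β-catenin, and which signal lies behind their lower levels was not tested. Fosl1, an AP-1 factor, had 42.2, 52.3, 40.6 and 53.7 CPM in BMPR2 DELX 1 to 4 and 108, 134, 92.2 and 74.8 CPM in ROSA 1 to 4 and fell by 1.11 on the log2 scale (adjusted p 0.0083). ROSA 1 and ROSA 2, the libraries high in immediate early genes, were its highest, and without them its log2 fold change was -0.81 (adjusted p 0.047). The hyaluronan receptor Cd44 fell by 0.51 (adjusted p 0.012), and the chondrogenic factor Sox9 fell by 1.20 (adjusted p 0.031, lost in 6 of 8 fits). Targets that belong to the pathway's own feedback or output, Nkd1, Nkd2, Znrf3, Apcdd1, Lef1, Tcf7, Tcf7l2 and Sp5, had log2 fold changes from -0.64 for Sp5 to 0.44 for Nkd1 and none of these 8 passed, and Notum and Rnf43 were too low to test. Apcdd1, a membrane inhibitor of Wnt signalling, was the only gene of these 8 whose groups did not overlap, at 9.46 to 11.7 CPM in BMPR2 DELX and 6.35 to 9.27 CPM in ROSA (log2 fold change 0.43 ± 0.14, adjusted p 0.086).

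**Figure D5:**
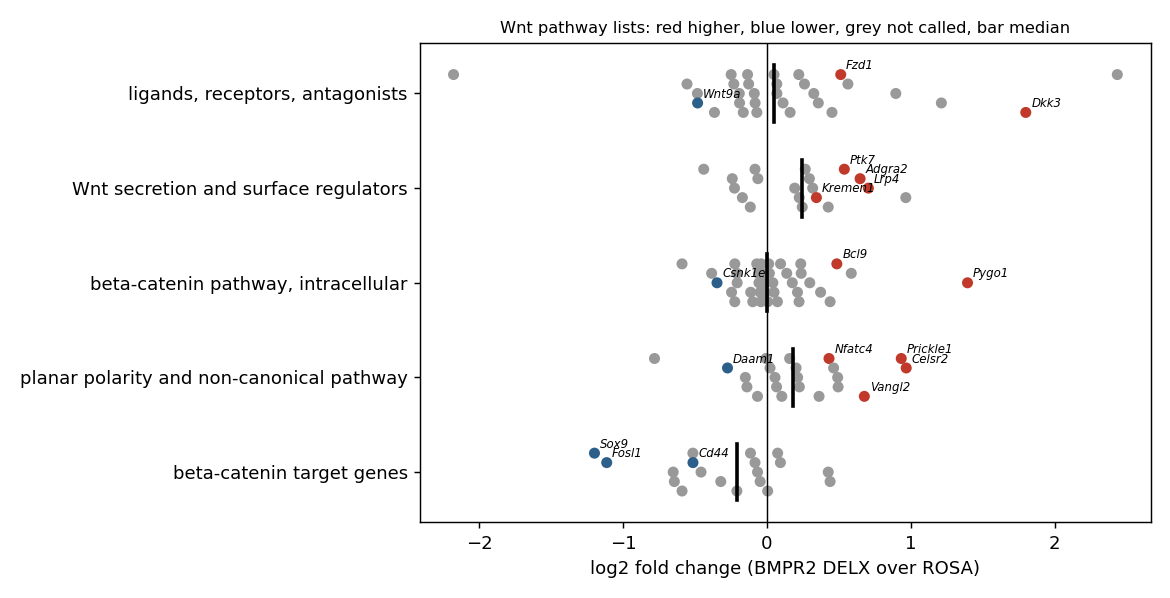
Log2 fold change of each tested gene in the member list and in the 4 pathway lists, with 1 point per gene, red and blue for called genes and a bar at each median. Called genes of the surface list lie above 0 and those of the target list below 0, and the medians run from -0.21 for targets to 0.25 for surface regulators.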

How the data were processed

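RNA sequencing was analysed for 4 samples with the label BMPR2 DELX and 4 with the label ROSA. The authors deposited raw read counts per Ensembl gene, 1 file per sample, with unstranded, same-strand and opposite-strand columns. Per the submitters' processing notes the build is GRCm38 and the tools are STAR 2.5.2b and HTSeq, whose roles are not stated, and the annotation release and any filter are not given in the sources used here. The opposite-strand column was taken, as it held 92.1% to 93.96% of strand-assigned counts. The 4 lines that name no gene, 14.7% to 21.95% of reads, were left out. ROSA 1 had the highest of these shares, with BMPR2 DELX 3 next at 17.3%. ROSA 1 also had the lowest opposite-strand share and the lowest TMM factor (0.918). GENCODE M21 (GRCm38) gave symbols, positions and exon lengths.

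Genes were filtered with filterByExpr (14887 left), scaled with TMM factors and tested with the edgeR 4.0.16 quasi-likelihood test in R 4.3.3, with Benjamini-Hochberg adjustment over all genes and calls at an adjusted p below 0.05. Named members are those called, the 4 most abundant per length of each role and the smallest p of each role, and of each other list up to 6 called genes by p. Other genes are named to account for all members, or were chosen after their values were seen (immediate early genes, other cell markers, Wls, members such as Fzd8 whose groups do not overlap, Ctnnb1 and the feedback targets). The members and lists were chosen with earlier results of these data known. Start regions are from RefSeq (GRCm38.p6), with 33 of 50 members matched. Alternatives were RLE and upper-quartile factors, DESeq2 1.42.0, limma 3.58.1 voom with sample quality weights, no filter beyond 1 count in all libraries together, 1 CPM or more in 4 libraries, unstranded counts, leaving out libraries, and a fit blocked on the replicate number.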

Additional observations from a re-analysis of the deposited data

Results flagged for a closer look

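Within each group of 4 libraries, the gap between the most extreme library and its neighbour was set against the group's range for 46 genes, the 31 tested members and the 15 called pathway genes, and 5 of 92 groups had a gap above Dixon's 95% critical value, where chance gives about 1 in 20. Wnt2 in ROSA 3 had 11.8 CPM against 4.32 to 5.44 CPM in the other libraries of its group. Wnt7a in ROSA 2 had 35.1 CPM against 13.1 to 16.7 CPM in the other libraries of its group. Fzd5 in ROSA 4 had 66.6 CPM against 49.9 to 52.2 CPM in the other libraries of its group. Wnt5b in BMPR2 DELX 3 had 0.734 CPM against 0.357 to 0.395 CPM in the other libraries of its group. Vangl2 in BMPR2 DELX 4 had 7.26 CPM against 10.1 to 10.3 CPM in the other libraries of its group, and this lowest BMPR2 DELX library was still above every ROSA library.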

How the results depend on the processing

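The counts of called members are small and moved with the setting. Members called higher and lower were 2 and 1 with TMM and with RLE factors, 3 and 0 with upper-quartile factors, 7 and 2 in DESeq2, 4 and 0 in limma voom, 2 and 0 without a count filter, 2 and 1 with the filter at 1 CPM, and 3 and 1 with unstranded counts. Dkk3 was called in each of these. Without 1 library they were 1 to 3 and 0 to 1, other pathway genes 6 to 10 higher and 2 to 6 lower, and all genes 213 to 545 higher and 264 to 721 lower, lowest without ROSA 2. A pair of settings was chosen after seeing the data. Without ROSA 1 and ROSA 2 members called were 0 higher and 0 lower, other pathway genes 1 and 1, and all genes 64 and 108, with 2 ROSA libraries left. Without BMPR2 DELX 3 and ROSA 3, members were 1 and 1, other pathway genes 3 and 2, and all genes 222 and 409. DESeq2 called 15 and 12 other pathway genes and 1070 and 1228 of all genes, limma voom 8 lower pathway genes, and no filter 3. With upper-quartile factors 734 genes were higher and 606 lower, against 589 and 766 with TMM, and the median of all genes moved from 0.0045 to 0.043. The members' median ran from -0.0474 to 0.29 over the settings, highest without ROSA 1 and ROSA 2.

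With the replicate number as a block, members called were 3 and 1, other pathway genes 9 and 6, and all genes 563 and 682. Same-numbered samples had correlations of 0.0131, 0.27, 0.30 and 0.13 in their deviations from the group means, and the labels do not tie the numbers together, so they share only a number.

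Log2 fold changes near 0 changed sign. Over the fits without 1 library the ranges were Wnt2b -0.0474 to 0.44, Wnt5b -0.38 to 0.14, Fzd9 -0.36 to 0.18, Fzd4 -0.0349 to 0.16, Fzd3 -0.00959 to 0.12, Fzd6 -0.37 to 0.19, Ror1 -0.0875 to 0.24, Sfrp1 -0.44 to 0.46, Rspo3 -0.51 to 0.44, Axin2 -0.35 to 0.0853. Without ROSA 1 and ROSA 2, those that changed sign were Wnt5b 0.47, Wnt10b 0.26, Fzd6 0.49, Sfrp1 0.83, Rspo3 0.68 and Axin2 0.0162, and without BMPR2 DELX 3 and ROSA 3, Fzd9 0.0378 and Ror1 -0.17. Sfrp1 was 0.13 with the replicate block and Wnt2b -0.0179 with unstranded counts. None of these genes was called in any setting, and the cause was not tested. Members removed by the filter reached 17 counts at most, and no difference was tested for them.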

Other observations

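Among antagonists left out by the count filter, Sfrp2 had 2, 3, 1 and 4 counts in BMPR2 DELX 1 to 4 and 11, 9, 11 and 4 counts in ROSA 1 to 4, and Wif1, which also binds Wnt ligands, had 7, 1, 0 and 1 and 10, 7, 2 and 17 counts. Wnt3a, a classic β-catenin ligand, had 0, 6, 0 and 0 counts in BMPR2 DELX 1 to 4 and 0 in each ROSA library, so all its reads came from a single library.

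GGCGCC was present in the 250 bases before the start of 11 of the 33 members in the RefSeq table (33.3%), against 10.8% of all 27025 genes there. The median G or C content of the same windows was 67.4% for the members and 52.4% for all start regions. Of the 11 genes, Fzd10, Rspo1 and Wnt3a were not tested, and of the rest Wnt9a alone was called, where 9.10% of all genes tested were. A single call among so few genes does not set them apart from other genes. CTTTGAT or CTTTGAA was found for 3 members, Dkk1, Wnt11 and Wnt5b. Dkk1 was not tested, and Wnt11 and Wnt5b were not called.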
